A study of Mus musculus with 9 samples.

Results

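Barcodes of conventional dendritic cells 2 (cDC2) were examined in 1 single-cell library of mouse ascites, the fluid that collects in the peritoneal cavity. They were chosen by a gate on unique molecular identifiers (UMIs), tags that each stand for 1 captured RNA molecule, counted per gene and per barcode, the label shared by the RNA of 1 droplet. The cell filter asked for 500 or more UMIs, 200 or more genes and no more than 15% mitochondrial UMIs. Members of the gate had 1% or more of their UMIs in H2-Aa, H2-Ab1, H2-Eb1 and Cd74, the class II genes of the rule. They had at most 1 UMI of the complement genes C1qa, C1qb and C1qc, at most 1 of Krt8, Krt18, Krt19, Wt1 and Upk3b, and none of Cd79a and Cd79b. They also had fewer than 2 UMIs of Xcr1, Clec9a, Itgae, Naaa and Irf8, genes of conventional dendritic cells 1 (cDC1), and fewer than 2 of Ccr7 and Fscn1, genes of migratory dendritic cells. The gate held 425 of the 6442 barcodes that passed the cell filter, 6.60% (exact 95% interval 6.003 to 7.231%). Since measured counts chose the members, the levels of the rule genes are descriptions, and no test was made of the gate against other barcodes.

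The mice had the genotype label B6_WT, and the ascites came from the ID8-Def29/Vegf model, a line of mouse ovarian cancer cells engineered with a beta-defensin and with the vessel growth factor Vegf. No treatment, age or number of animals is named for this library, so its values describe a single condition with no replicate, and every interval below covers counting error only. The series also has 8 bulk libraries of the cultured line, 4 with deferiprone for 12 h and 4 with vehicle, which are not ascites and were not used. Members were set beside 49 barcodes of a cDC1 gate (2 or more UMIs of the cDC1 genes, fewer than 2 of the plasmacytoid genes Siglech and Cox6a2, the other limits as for members). They were also set beside 966 barcodes of a C1q macrophage gate (5 or more UMIs of the C1q genes, the keratin and Cd79 limits, no class II limit) and 9 barcodes of a migratory dendritic cell gate (2 or more UMIs of Ccr7 and Fscn1, no limit on cDC1 genes).

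Conventional dendritic cells take up antigen and display its peptides to T cells, and the cDC2 branch is best known for display on class II molecules to helper T cells. Class II molecules are assembled with the invariant chain Cd74, the H2-DM proteins load peptide onto them in lysosomes, and the H2-DO proteins restrain H2-DM. In the peritoneum, small peritoneal macrophages, which derive from monocytes, also carry class II molecules, so class II alone does not separate these cells.

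Class II genes share promoter elements known as the X and Y boxes, which bind the RFX and NF-Y complexes and recruit the coactivator CIITA. Class II genes lead the profile of the gate, so the windows around the Y box are shown for 5 of them, 2 of the genes the rule used (H2-Aa and H2-Eb1) and 3 it did not use. The sequences are 86 bases from the RefSeq promoter entries on GRCm38.p6, on the strand of the gene, with capitals marking GATTGG, the core of the Y box.
H2-Aa: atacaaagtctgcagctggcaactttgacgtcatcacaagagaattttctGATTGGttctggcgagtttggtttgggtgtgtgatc
H2-Eb1: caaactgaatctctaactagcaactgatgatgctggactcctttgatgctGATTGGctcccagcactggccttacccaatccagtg
H2-DMb1: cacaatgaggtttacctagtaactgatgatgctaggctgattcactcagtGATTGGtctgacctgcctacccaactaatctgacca
H2-DMb2: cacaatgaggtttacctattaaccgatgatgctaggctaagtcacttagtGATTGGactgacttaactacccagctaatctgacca
H2-Oa: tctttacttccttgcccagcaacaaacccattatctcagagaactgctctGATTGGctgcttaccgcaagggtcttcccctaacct
They lie at chr17:34287837-34287922 (minus strand) for H2-Aa, chr17:34305757-34305842 for H2-Eb1, chr17:34153079-34153164 for H2-DMb1, chr17:34145108-34145193 for H2-DMb2 and chr17:34092285-34092370 for H2-Oa (plus strand). Within 250 bases before the start, GATTGG was on the strand of the gene in 9 of 11 entries, which belong to 10 genes of the class II lists, the regulators Rfx5 and Rfxank among them, and on that strand in 7.73% of all 32851 promoters, or 14.6% on either strand. A match describes the letters of these windows and is no measure of binding.

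The 425 members held 554454 UMIs, with a median of 1278 UMIs (500 to 3678) and 492 genes per barcode. Levels are counts per 1000000 UMIs (CPM) of the pooled barcodes of a gate, in which 1 UMI of the members equals 1.80 CPM, and a gene with no UMI could be at up to 5.41 CPM (3 UMIs). The cDC1 gate, with 99257 UMIs and a median of 2034, had coarser steps of 10.1 CPM, and the macrophage gate, with a median of 1694.5, finer steps of 0.571 CPM. RNA free in the fluid was estimated, from genes of epithelial cells and fibroblasts, at 13.1% (8.11 to 20.03%) of the UMIs of members, 6.97% (0.844 to 25.2%) in the cDC1 gate and 16.8% (13.4 to 20.7%) in the macrophage gate. Scrublet marked 3 members as doublets, and they were kept.

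The class II genes of the rule set the gate and are given as a description. Their joint share of a member's UMIs ran from 1.04% to 12.997%, with a median of 6.30% and quartiles of 4.03% and 7.89%. Cd74 alone stood at 29030 CPM, against 20553 in the cDC1 gate and 5114 in the macrophage gate. Just inside the limit, between 1% and 1.2%, were 9 barcodes, and just outside it, between 0.8% and 1%, were 11. Napsa stood at 195 CPM inside from 2 UMIs and 434 outside from 4, and Apoe at 3311 inside and 2928 outside. Neither side had a UMI of Cd209a, but 3 UMIs would be 292 CPM inside and 325 outside, so this says little. Haemoglobin genes held 26.4% of the UMIs inside and 0.152% outside, which lowers the other levels inside. Pooled class II share was 6.16% in members, 4.40% in the cDC1 gate and 1.02% in the macrophage gate. The class II limit alone kept out 593 barcodes that met every other limit, the C1q limit 345, the Cd79 limit 121, the cDC1 limit 52, the keratin limit 39 and the migratory limit 9.

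The label was checked against 5 markers of cDC2, none of them used by the rule: the lectins Cd209a, Clec10a and Mgl2, the peptide loading gene H2-DMb2 and the aspartic protease Napsa. Of the members, 300 (70.6%) had a UMI of at least 1 marker, 165 of exactly 1, 97 of 2, 35 of 3, 2 of 4 and 1 of all 5, and 125 had none. Together the markers stood at 1306 CPM in members, 514 in the cDC1 gate and 161 in the macrophage gate. This is a description of the gate, since the markers were chosen with earlier results of these data known and H2-DMb2 is a class II gene like those of the rule. Some barcodes described further on, with macrophage or B lineage genes, go against the label, and others hold more of the cDC1 genes.

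Cd209a, a receptor for sugars of the DC-SIGN family on chromosome 8 from 3743397 to 3748984 of GRCm38, stood at 117 CPM (90.5 to 149) in members, 10.1 in the cDC1 gate from 1 UMI and 1.71 in the macrophage gate. It was 68.5-fold (22.4 to 341) higher in members than in the macrophage gate. Napsa, on chromosome 7 from 44572380 to 44586862, stood at 682 CPM (615 to 754), against 343 (237 to 479) in the cDC1 gate and 47.4 (37.7 to 58.7) in the macrophage gate. H2-DMb2 stood at 312 CPM, against 121 in the cDC1 gate, a ratio of 2.58 (1.44 to 5.09), and 5.71 in the macrophage gate, a ratio of 54.7 (29.0 to 116). These 3 markers were higher in members than in both other gates.

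Clec10a and Mgl2, neighbouring lectin genes of nearly the same sequence whose reads may have been split between them, behaved less alike. Mgl2 stood at 97.4 CPM in members, at no UMI in the cDC1 gate and at 11.4 in the macrophage gate, so it was 8.53-fold (5.03 to 15.1) higher than in macrophages. Clec10a stood at 97.4 CPM in members, 40.3 in the cDC1 gate and 94.7 in the macrophage gate, a ratio to macrophages of 1.03 (0.742 to 1.41). Clec10a therefore separated members from neither gate beyond counting error. Only 9 members had both lectins, 11 had Cd209a with Clec10a, and 31 had Cd209a with Napsa.

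Shares of barcodes with a UMI were compared after every barcode was thinned to 500 UMIs, which left none out. Napsa was then in 28.2% of members, 28.6% of the cDC1 gate and 2.79% of the macrophage gate, and in 0.0938% of 3198 epithelial barcodes (5 or more UMIs of Krt8, Krt18, Krt19, Wt1 and Upk3b), where it should be absent. Before thinning these shares were 51.3%, 46.9%, 7.25% and 0.750%, at median depths of 1278, 2034, 1694.5 and 5509.5 UMIs. Cd209a was in 4.94% of thinned members, 2.04% of the cDC1 gate, 0.104% of the macrophage gate and 0.0625% of epithelial barcodes, and in 11.8% of members before thinning. A gene such as Cd209a was thus seen in few members even though its level was far above that of free RNA, 0.117 CPM.

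**Figure D1:**
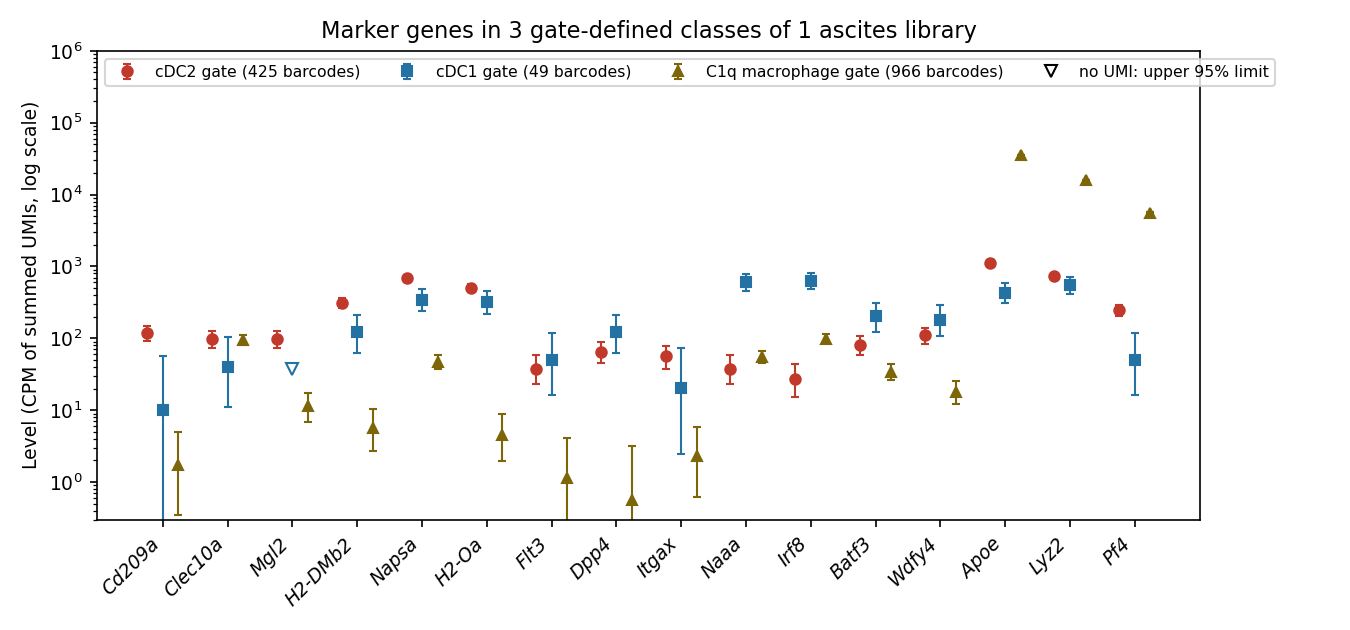
Levels of marker genes in the cDC2, cDC1 and C1q macrophage gates, in CPM on a log axis with exact Poisson 95% intervals for counting error; open triangles show the upper limit where no UMI was found. Cd209a, H2-DMb2 and Napsa are highest in the cDC2 gate, Naaa and Irf8, which the rule limits, in the cDC1 gate, and Apoe, Lyz2 and Pf4 in the macrophage gate.

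Genes shared by conventional dendritic cells were sparse. Flt3, the growth factor receptor that these cells depend on, stood at 37.9 CPM in members from 21 UMIs, 50.4 in the cDC1 gate and 1.14 in the macrophage gate. Dpp4, a surface peptidase, stood at 64.9 CPM in members, 121 in the cDC1 gate and 0.571 in the macrophage gate, and Itgax, which encodes CD11c, at 55.9, 20.1 and 2.28. The ratio of members to macrophages was 33.2 (8.11 to 292) for Flt3, 114 (19.2 to 4618) for Dpp4 and 24.5 (8.66 to 95.5) for Itgax. Zbtb46, the transcription factor of the conventional lineage, had 3 UMIs in members, and Spib had none. Irf4, a factor that cDC2 depend on, had 7 UMIs in 7 members, too few for a firm level.

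Lists for the subsets cDC2A and cDC2B were read next. Of the 6 cDC2B genes, all passed 20 UMIs, and beside the 3 lectins these were Clec12a at 110.0 CPM, Tmem176a at 449 and Tmem176b at 479.8. They summed to 1351 CPM in members, 272 in the cDC1 gate, 1081 in the macrophage gate and 1401 in the migratory gate. On the 2-fold scale defined below, 2 of 6 were higher than in macrophages and 4 were within 2-fold, beside 5.95% of all genes higher. Against the cDC1 gate 4 of 5 counted were higher, beside 7.84% of all genes. Which subset the members belong to was not tested. Tmem176a and Tmem176b encode related membrane channels, and Tmem176a was 22.3-fold (6.11 to 185) higher in members than in the cDC1 gate but near the macrophage level of 381 CPM. Of the 7 cDC2A genes, Ltb, the cytokine lymphotoxin beta, was the single one past 20 UMIs, at 115 CPM in members, no UMI in the cDC1 gate and 2.85 in the macrophage gate. Tbx21, Clec4a4, Cd4 and Areg had no UMI in members.

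Markers of other cell types were checked as whole lists. All 5 mast cell and basophil genes and 6 of 7 natural killer cell genes (Ncr1, Klrb1c, Gzma, Gzmb, Eomes and Prf1) were at 0 in members, and Nkg7 had 8 UMIs. T cell markers summed to 23.4 CPM in members, with Cd4 at 0, and neutrophil markers to 27.1 CPM, with Retnlg, Camp, Ngp and Lcn2 at 0. B or plasma cell markers summed to 16.2 CPM, with Jchain at 0 beside the 2 genes of the rule. The 8 plasmacytoid genes, none at 0, summed to 256 CPM in members, 282 in the cDC1 gate and 279.6 in the macrophage gate, and 76 members had a UMI of them. Bst2, an antiviral membrane protein found in many cell types, and Ly6d passed 20 UMIs, and Siglech had 6 UMIs.

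Macrophage markers summed to 2318 CPM in members, 1078 in the cDC1 gate and 70248 in the macrophage gate, and none of the 12 was at 0. The 10 classical monocyte genes, none at 0, summed to 911 CPM in members, 1491 in the cDC1 gate and 1266 in the macrophage gate, and 206 members had a UMI of them. Plac8 held most of that sum in members, at 566 CPM, while Ly6c2, a surface marker of these monocytes, had 6 UMIs. The 6 nonclassical monocyte genes, none at 0, summed to 344 CPM in members, 332 in the cDC1 gate and 78.2 in the macrophage gate. On the 2-fold scale defined below, 2 were counted, Nr4a1 and Ear2. Both were higher in members than in macrophages, beside 5.95% of all genes, and both were within 2-fold of the cDC1 gate. Small peritoneal macrophage genes summed to 269 CPM in members, 20.1 in the cDC1 gate and 541 in the macrophage gate, with 1 of the 5 at 0 in members, and Retnla held most of that sum in members. The part of these markers in the results below was not tested.

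Members were not alike, and the class II share gives an order to them. Among 72 members with 1 to 3% class II, 82 with 3 to 5%, 172 with 5 to 8% and 99 with 8% or more, Napsa stood at 221, 249, 804 and 1100.2 CPM. Cd209a had 0, 0, 24 and 41 UMIs in the same bins, so all 65 lay in members with 5% or more. H2-DMb2 stood at 152, 198, 308 and 508 CPM. Mgl2 stood at 13.8, 77.4, 103 and 152 CPM. Clec10a stood at 69.1, 34.4, 111 and 144 CPM, and its 2 lowest bins did not keep the order. The 5 markers were thus highest in the bin of highest class II. The bins were cut on genes of the rule and H2-DMb2 is itself a class II gene, so this order is a description and no check of the label.

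Genes of macrophages had the opposite order. Apoe, a lipid carrier abundant in macrophages, stood at 5677, 1247, 197 and 152 CPM from the lowest to the highest class II bin. Lyz2, a lysozyme, stood at 2597, 1289.7, 132 and 326 CPM, and its 2 highest bins did not keep the order. Retnla, a marker of small peritoneal macrophages, had 55, 39, 0 and 1 UMIs. Ly6d, a gene of early B lineage and plasmacytoid cells, had 38, 1, 0 and 0 UMIs. Members with 1 to 3% class II were also shallower, with a median of 856.5 UMIs, against 1428.5, 1320 and 1325 in the higher bins.

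Cst3 and Plac8 peaked between these ends. Cst3, the protease inhibitor cystatin C, stood at 3895, 13189, 7929 and 6176 CPM over the 4 bins. Plac8, found in monocytes and plasmacytoid cells, stood at 553, 1238, 466 and 159 CPM. Both were also high in the cDC1 gate, Cst3 at 26779 and Plac8 at 1289.6 CPM, and the 56 members with 1 UMI of the cDC1 genes of the rule carried part of them. With those 56 left out, Cst3 was at 6446 and Plac8 at 396 CPM in members.

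**Figure D2:**
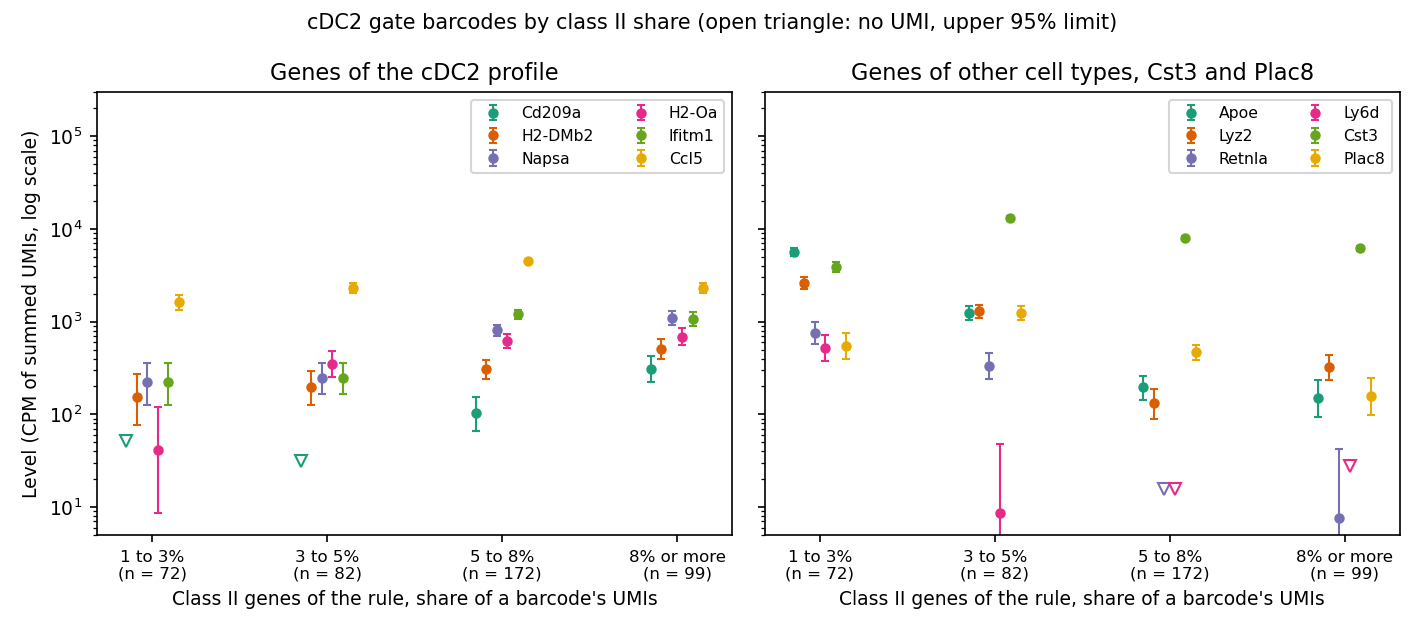
Levels of 12 genes in members grouped by their class II share, from low to high, in CPM on a log axis with exact Poisson 95% intervals; open triangles show the upper limit where no UMI was found. Cd209a, H2-DMb2, Napsa, H2-Oa and Ifitm1 stand higher in the 2 upper bins, Apoe, Retnla and Ly6d in the lowest, and Cst3 and Plac8 in the bin of 3 to 5%.

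Clustering of the members without the genes of the rule gave 3 sub-clusters, described here by their leading genes and not tested. The largest, of 241 barcodes, was led by Ccl17, Fabp5, Samsn1, Ppp1cc and Ccl5 and had a median class II share of 6.88%. It held Cd209a at 147, Napsa at 768 and H2-DMb2 at 369.8 CPM, with Apoe at 254 and Lyz2 at 219. The lead of Ccl17 rested on 1 barcode with 62 of its 86 UMIs.

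The second sub-cluster, of 133 barcodes, was led by Ly6d and the haemoglobin genes Hbb-bs, Hba-a2, Hba-a1 and Hbb-bt, near copies within each pair. Its class II median was 6.15%, with Napsa at 706 and Cd209a at 91.1 CPM. It held 9 of the 11 members with 20 or more haemoglobin UMIs. Those 11 carried 9099 of the 9604 haemoglobin UMIs of the gate, and no other member had more than 7. In the other members Hbb-bs stood at 522 CPM, where free RNA would give 519 CPM.

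The third, of 51 barcodes, was led by Retnla, Fn1, Pla2g7, Lyz1 and F13a1 and had a median class II share of 2.72%. Apoe stood at 7296, Lyz2 at 4987 and the platelet factor Pf4 at 1406 CPM in it. Napsa stood at 151, H2-Oa at 50.2 and Ccl5 at 134 CPM. The markers Clec10a and Mgl2 were not lower there than in the whole gate, at 100.4 CPM each from 6 UMIs. Macrophage markers outside the rule summed to 14275 CPM, against 1128 and 583 in the sub-clusters of 133 and 241. These 51 barcodes go against the label, though their C1q counts met the limit of the rule.

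Without these 51, an alternative added after the data were seen, Apoe stood at 376 CPM in members in place of 1122 CPM, Lyz2 at 230.4 in place of 743 and Retnla at 12.1 in place of 171. Cd209a stood at 127, Napsa at 746 and H2-DMb2 at 339.6 CPM. The other markers, Clec10a and Mgl2, hardly changed, at 97.03 CPM each in place of 97.4. At a finer resolution the members fell into 10 sub-clusters. One of 26 barcodes, with a median of 706.5 UMIs, was led by Ly6d, Mzb1 and Ms4a1, genes of B lineage cells. It held B or plasma cell markers outside the rule at 276 CPM from 7 UMIs. Another, of 58 barcodes, held Cst3 at 15396, Plac8 at 1262 and Wdfy4 at 229 CPM, genes also high in the cDC1 gate. Genes of the cDC1 list outside the rule stood at 528 CPM in these 58, from 46 UMIs, with Napsa at 390 and Cd209a at 103 CPM. Whether these 58 are cDC1 barcodes was not tested. Leaving out the 16 members with 2 or more B lineage UMIs took Ly6d to 7.38 CPM in place of 70.3, and Napsa to 685.

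**Figure D3:**
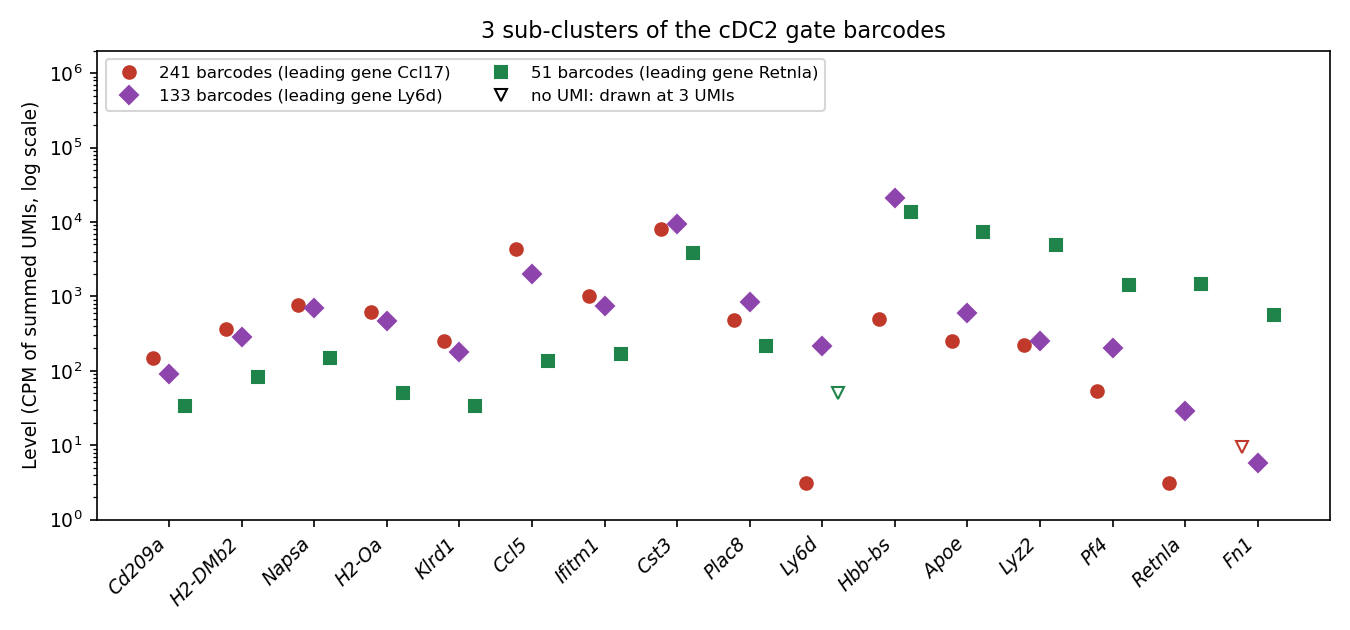
Levels of 16 genes in the 3 sub-clusters of members, in CPM on a log axis, with open triangles at the level of 3 UMIs where no UMI was found. The 51 barcodes led by Retnla stand highest in Apoe, Lyz2, Pf4, Retnla and Fn1 and lowest in Cd209a, H2-DMb2, Napsa, H2-Oa, Klrd1, Ccl5 and Ifitm1. Clec10a and Mgl2 are not drawn.

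Antigen presentation genes that the rule did not use were set against both larger gates. A gene was counted as higher or lower past 2-fold on the scale of CPM + 5, among genes outside the rules whose 2 levels averaged 50 CPM or more. Of 1647 genes in the macrophage comparison, 368 (22.3%) were past 2-fold, 98 higher (5.95%) and 270 lower (16.4%) in members, with a median log2 ratio of -0.19. Of 1467 in the cDC1 comparison, 198 (13.5%) were, 115 higher (7.84%) and 83 lower (5.66%), with a median of -0.02. With estimated free RNA taken off each level the cDC1 comparison had 97 higher and 143 lower, so its balance of directions depends on that step. The counts given for gene lists below are to be read beside these shares of all genes.

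Of the 10 other class II genes and regulators, 4 were counted against macrophages and all 4 were higher in members, with a median log2 ratio of 3.55. H2-Oa, the alpha chain of H2-DO, on chromosome 17 from 34092340 to 34095234, stood at 505 CPM (448 to 568), against 4.56 (1.97 to 8.99) in the macrophage gate, 111-fold (55.4 to 259) higher. H2-DMa stood at 1062 CPM in members and 225 in the macrophage gate, 4.71-fold (4.14 to 5.37) higher. H2-DMb1 was 3.34-fold (2.73 to 4.08) higher than in macrophages, at 372 CPM in members and 111 in the macrophage gate. Ciita, the coactivator of these genes, had 29 UMIs in members, 52.3 CPM, against 4.56 in the macrophage gate. The gate rule asks for class II genes that are known to be controlled together with these, so these ratios are descriptions of the gate.

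Against the cDC1 gate, 1 of 5 counted class II genes was higher in members, H2-DMb2, and none was lower past 2-fold. Among all genes 7.84% were higher and 5.66% lower. H2-DMb1 stood at 372 CPM in members and 604 in the cDC1 gate, a ratio of 0.615 (0.459 to 0.834), the other way from H2-DMb2. The 2 genes are near copies next to each other on chromosome 17, and how reads were divided between them is not known. H2-DMa had a ratio of 0.837 (0.689 to 1.02), H2-Oa of 1.57 (1.08 to 2.33) and H2-Ob of 0.873 (0.402 to 2.16). H2-Eb2 had no UMI in members.

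Of the 14 lysosomal proteases and their partners, 13 were counted against macrophages, of which 2 were higher (Napsa and Cst3) and 8 lower in members. Among all genes 5.95% were higher and 16.4% lower. Ctsb, a cysteine protease, stood at 197 CPM in members and 2432 in the macrophage gate, and the aspartic protease Ctsd at 90.2 and 2026. Lgmn, an asparaginyl protease, stood at 61.3 and 754 CPM. Ctss, which trims the invariant chain, was closer, at 1183 CPM in members and 2182 in the macrophage gate, a ratio of 0.542 (0.498 to 0.589). Ctsh had 465 and 493 CPM, and the thiol reductase Ifi30 723 and 425, 1.70-fold (1.51 to 1.93) higher in members. Against macrophages, members were thus near or above in Napsa, Ifi30 and Ctsh, and far lower in Ctsb, Ctsd and Lgmn.

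Against the cDC1 gate, Cst3 was the protease list gene lower past 2-fold in members, at 8089 CPM against 26779 in the cDC1 gate. Of the 11 counted genes 3 were higher, Ctsa, Ctsc and Ctsd, beside 7.84% of all genes. Ctsa, a carboxypeptidase, stood at 144 CPM in members and 30.2 in the cDC1 gate, Ctsc at 126 and 30.2, and Ctsd at 90.2 and 10.1 from 1 UMI. Short of 2-fold on this scale, Ctss was 1.86-fold (1.44 to 2.45) higher in members, Ifi30 1.89-fold (1.35 to 2.71) and Napsa 1.99-fold (1.40 to 2.92). Psap, the saposin precursor, stood at 754 CPM in members and 1350 in the cDC1 gate. Of the class I genes, 2 of 9 counted were lower in members than in the cDC1 gate, beside 5.66% of all genes. They were the immunoproteasome subunits Psmb8 and Psmb9. Psmb8 stood at 413 CPM in members and 897 in the cDC1 gate, and Psmb9 at 152 and 403. B2m, the class I light chain, stood at 2016, 1652 and 3006 CPM in members, the cDC1 gate and the macrophage gate.

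Among C-type lectins, 4 of 10 counted were higher and 4 lower in members than in macrophages, beside 5.95% and 16.4% of all genes. Klrd1, which encodes CD94, known from natural killer cells, stood at 204 CPM (168 to 245) in members, 50.4 in the cDC1 gate and 1.71 in the macrophage gate. It was seen in 20.5% of members and 8.47% after thinning, against 0.104% of thinned macrophages. Clec4b1 stood at 75.8, 10.1 and 28.0 CPM in members, the cDC1 gate and the macrophage gate. Clec4a2, an inhibitory lectin, was at 59.5 CPM in members and 182 in the macrophage gate. Mrc1, the mannose receptor, had 11 UMIs in members, 19.8 CPM, against 137 CPM in the macrophage gate.

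Of the Fc receptor genes, 5 of 7 counted were lower in members than in macrophages and none was higher. Over all genes 16.4% were lower and 5.95% higher. Fcgr3, an activating receptor for immunoglobulin G, stood at 57.7 CPM in members and 596 in the macrophage gate, and the inhibitory Fcgr2b at 108 and 262. The adaptors Fcer1g and Tyrobp stood at 1969.5 and 2594 CPM in members, 635 and 1521 in the cDC1 gate, and 3549 and 4703 in the macrophage gate. Both adaptors thus lay between the other gates in members.

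Of the transcription factors that the rule did not use, 1 of 11 counted was higher in members than in the cDC1 gate (Stat3), 3 were lower (Batf3, Ahr and Notch2) and 7 were within 2-fold. The shares of all genes were 7.84% higher and 5.66% lower. Irf8, which the rule limits, stood at 27.1 CPM in members and 625 in the cDC1 gate, as a description. Batf3, the cDC1 factor, stood at 81.2 CPM in members, 202 in the cDC1 gate and 34.2 in the macrophage gate, 2.48-fold (1.39 to 4.29) higher in the cDC1 gate. Ahr, a receptor for aromatic ligands, stood at 90.2, 252 and 19.4 CPM, and Notch2, whose signal cDC2 depend on in the spleen, at 92.0, 191 and 116. Stat3, which carries cytokine signals, stood at 90.2 CPM in members and 20.1 in the cDC1 gate from 2 UMIs. Id2 stood at 491, 705 and 176 CPM, and Spi1, which encodes PU.1, at 271, 242 and 245.

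Against macrophages, 5 of 12 counted factors were higher in members, Id2, Rel, Batf3, Stat3 and Ahr, and 3 lower, Zeb2 and Klf2 among them. The shares of all genes were 5.95% higher and 16.4% lower. Runx3, whose levels were too low to be counted, stood at 66.7 CPM in members and 13.1 in the macrophage gate, 5.08-fold (2.94 to 8.96) higher, and Rel, a subunit of NF-kappa-B, at 149.7 and 42.2, 3.55-fold (2.56 to 4.92) higher. Zeb2 stood at 41.5 CPM in members, 187 in the macrophage gate and had no UMI in the cDC1 gate.

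Of the cytokine and growth factor receptors, 2 of 8 counted were higher in members than in macrophages, Il1r2 and Il2rg, and 2 lower. Over all genes 5.95% were higher and 16.4% lower. Against the cDC1 gate 1 of 4 was higher and none lower, beside 7.84% and 5.66% of all genes. Il1r2, the decoy receptor for interleukin 1, stood at 110.0 CPM in members, 50.4 in the cDC1 gate and 5.14 in the macrophage gate, 21.4-fold (10.6 to 49.1) higher than in macrophages. Csf1r, the receptor macrophages depend on, stood at 37.9 CPM in members and 375 in the macrophage gate. Crlf2, part of the receptor for TSLP, stood at 128, 121 and 118 CPM, and Csf2rb, a receptor chain for GM-CSF, at 43.3, 40.3 and 36.5 CPM in members, the cDC1 gate and the macrophage gate. For both genes the intervals of the ratios included 1. Ccr2, a receptor of cells leaving the blood, was the single chemokine receptor past 20 UMIs, at 141, 131 and 157 CPM.

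Ccl5 was the most abundant chemokine gene of the list in members. It stood at 3144 CPM (2998 to 3295) in members, 20.1 in the cDC1 gate from 2 UMIs and 138 (121 to 156) in the macrophage gate. That is 156-fold (43.1 to 1289) and 22.9-fold (19.97 to 26.3) higher. The gene lies on chromosome 11 from 83525778 to 83530518 and encodes a chemokine that draws T cells and monocytes. It made up 68.1% of the UMIs of all Ccl genes in members, 2.06% in the cDC1 gate and 1.497% in the macrophage gate. Free RNA would give 7.03 CPM. Ccl5 was higher still in the small migratory gate, as given further on.

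Ccl5 was unevenly spread over members. Of the 425, 237 had no UMI of it, 82 had 1 to 4 and 106 had 5 or more, with 22 at 20 or more and a highest count of 64. A UMI was found in 44.2% of members, 4.08% of the cDC1 gate (2 of 49 barcodes), 2.69% of the macrophage gate and 3.06% of epithelial barcodes. After thinning to 500 UMIs it was in 36% of members, 1.55% of the macrophage gate and 0.2502% of epithelial barcodes. Over the class II bins it stood at 1616, 2304, 4505 and 2307 CPM, highest at 5 to 8%. Its level was 3713 CPM with members of 5% or more class II alone and 3507 without the 51 barcodes high in macrophage genes. In a finer sub-cluster of 16 barcodes Ccl5 stood at 13159 CPM from 220 UMIs. Cd209a, Clec10a and Mgl2 had no UMI there, where 3 UMIs would be 179 CPM.

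Other chemokines were mostly lower in members than in macrophages, 8 of 11 counted, and 2 were higher, Ccl5 and Ccl17. Among all genes 16.4% were lower and 5.95% higher. Ccl6 stood at 601 CPM in members and 5552 in the macrophage gate, Cxcl2, which draws neutrophils, at 245 and 1604, and Ccl9 at 247 and 1062. Ccl24 had 1 UMI in members, against 249.9 CPM in the macrophage gate. Ccl17, a chemokine for T cells, stood at 155 CPM in members and 1.14 in the macrophage gate, and had no UMI in the cDC1 gate. With 62 of its UMIs in 1 barcode, its level says little of the other members, and with members holding a UMI of a cDC1 gene left out it was 49.2 CPM. Against the cDC1 gate, 4 of 9 counted chemokines were higher in members and none was lower, beside 7.84% and 5.66% of all genes. Ccl4 was at 193 CPM in members and 332 in the cDC1 gate, a ratio of 0.580 (0.390 to 0.886).

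**Figure D4:**
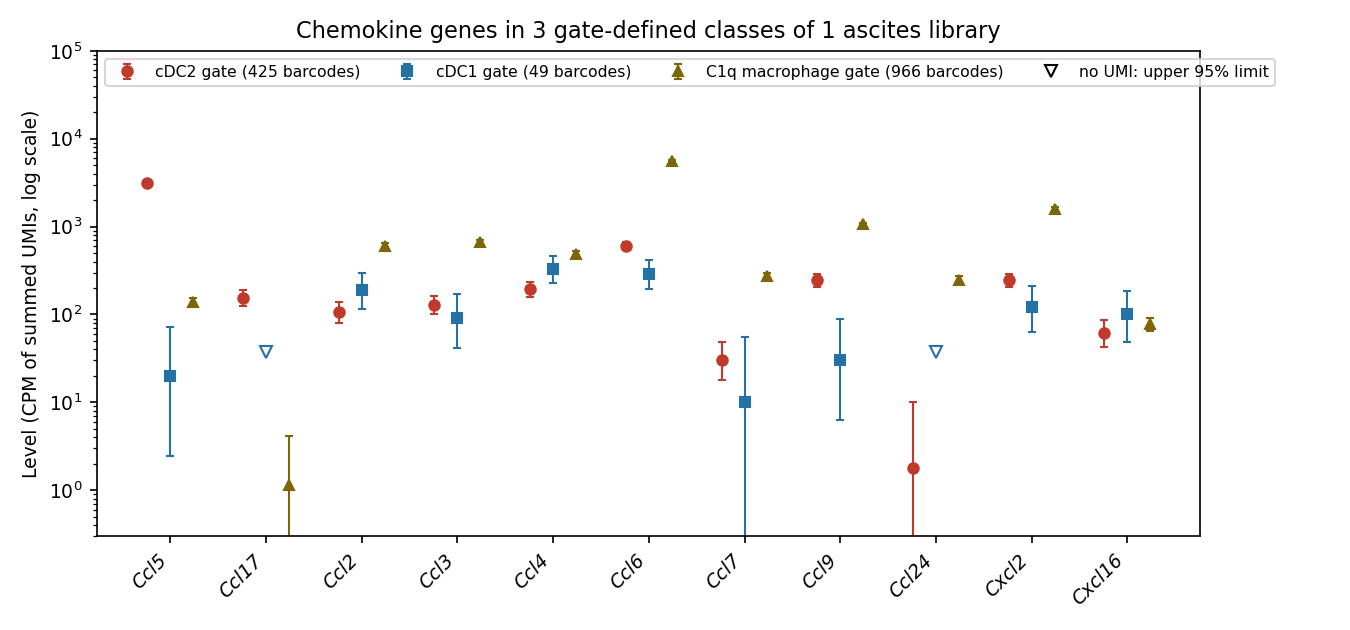
Levels of 11 chemokine genes in the cDC2, cDC1 and C1q macrophage gates, in CPM on a log axis with exact Poisson 95% intervals; open triangles show the upper limit where no UMI was found. Of the gates drawn, Ccl5 and Ccl17 stand highest in the cDC2 gate, and Ccl2, Ccl3, Ccl4, Ccl6, Ccl7, Ccl9, Ccl24 and Cxcl2 in the macrophage gate. The migratory gate is not drawn.

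Of 18 cytokine genes, Il1b, Ebi3, Tgfb1 and Tgfbi passed 20 UMIs in members. Il1b, which encodes interleukin 1 beta, stood at 207 CPM (171 to 249) in members, 70.5 in the cDC1 gate and 45.1 in the macrophage gate, 2.94-fold (1.38 to 7.48) and 4.60-fold (3.43 to 6.21) higher. Ebi3, a subunit of interleukins 27 and 35, had 24 UMIs, and Tgfb1 26. Il12b, which dendritic cells make to drive helper T cells, had 2 UMIs in members, Il6 2, Il10 1 and Tnf 6, and Il23a and Il27 had none. Il10 was at 35.9 CPM in the macrophage gate.

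Costimulatory genes were low. Cd86, a ligand of CD28, stood at 66.7 CPM in members, 111 in the cDC1 gate and 45.6 in the macrophage gate, and the intervals of both ratios included 1. Cd83, a marker of maturing dendritic cells, stood at 59.5, 60.4 and 15.4 CPM, 3.86-fold (2.25 to 6.68) higher than in macrophages. Cd80 had 3 UMIs in members, Cd40 4 and Cd274, which encodes PD-L1, 7. Vsir, a checkpoint gene, stood at 41.5 CPM in members and 152 in the macrophage gate, and Sirpa, used to sort cDC2, at 37.9 and 87.9. Sirpa had no UMI in the cDC1 gate, where 3 UMIs would be 30.2 CPM. Of 26 pattern recognition genes, Ly86, Tmem173 and Unc93b1 passed 20 UMIs, and Tmem173, which encodes STING, stood at 52.3 CPM in members, 30.2 in the cDC1 gate and 19.4 in the macrophage gate.

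Of 25 interferon-stimulated genes, 7 were counted against the cDC1 gate, with 2 higher and 1 lower in members. Against the macrophage gate 6 were counted, with 1 higher and 1 lower. The shares of all genes were 7.84% higher and 5.66% lower against the cDC1 gate, and 5.95% and 16.4% against macrophages. Ifitm1 was the single counted gene higher in both comparisons. This restriction factor of the cell membrane was at 842 CPM (768 to 922) in members, 50.4 in the cDC1 gate and 13.7 in the macrophage gate, 16.7-fold (7.11 to 51.7) and 61.5-fold (40.8 to 97.0) higher. Its relatives were more even, with Ifitm2 at 1144, 816 and 1542 CPM and Ifitm3 at 1879, 1874 and 2812. Over the class II bins Ifitm1 stood at 221, 249, 1201 and 1069.8 CPM. Ifi27l2a was at 215 CPM in members and 749.7 in the macrophage gate, and Ifit1 and Ifit2 had no UMI in members.

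Most iron and lipid genes counted were lower in members than in macrophages, and none counted was past 2-fold lower than in the cDC1 gate. Of 8 iron genes counted against macrophages, 6 were lower and none higher in members, with a median log2 ratio of -2.12 beside -0.19 over all genes counted. Fth1, which encodes the heavy chain of ferritin, was at 6253 CPM in members, 3315 in the cDC1 gate and 24537 in the macrophage gate. Hmox1, which breaks down heme, stood at 57.7, 40.3 and 2531 CPM, and in members at 14.2 without the 51 barcodes high in macrophage genes. Cd163, the haemoglobin scavenger receptor, had no UMI in members and was at 131 CPM in the macrophage gate, at least 24.1-fold higher there with members taken at 3 UMIs. Of 8 lipid genes counted, 7 were lower in members than in macrophages, beside 16.4% of all genes. Against the cDC1 gate, 1 of 5 iron genes (Trf) and 2 of 4 lipid genes (Apoe and Fabp5) were higher in members. The share of all genes was 7.84%. Few barcodes carried much of Apoe and Fabp5. Apoe stood at 1122 CPM in members and 376 without the 51 barcodes high in macrophage genes. Fabp5 had 32 UMIs in a finer sub-cluster of 16 barcodes, at 1914 CPM there and 44.6 in the other members. Iron genes summed to 11245 CPM in members, 6800.5 in the cDC1 gate and 48901 in the macrophage gate. Trem2, a lipid receptor, stood at 18.04 CPM in members and 801 in the macrophage gate.

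The genes farthest from the cDC1 level were named by a fixed rule of size. The 10 highest in members were Ccl5, Retnla, Ccl17, Ltb, Tnip3, Hilpda and the 4 haemoglobin genes. Tnip3, an inhibitor of NF-kappa-B, stood at 114 CPM in members and had no UMI in the cDC1 gate, at least 3.76-fold higher with that gate taken at 3 UMIs. Hilpda, a lipid droplet protein, stood at 101 CPM and also had no UMI in the cDC1 gate. Retnla and the haemoglobin genes were carried by few barcodes. The 10 barcodes with most Retnla held 91.6% of its UMIs, and those with most Hbb-bs 92.6%.

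Lower in members than in the cDC1 gate were Rab7b, Cxx1a, Txndc15, Gcsam, Tnni2, Sept3, Ifi205, BC028528, Impdh2 and Arid4b. Rab7b, a trafficking GTPase, stood at 10.8 CPM in members and 111 in the cDC1 gate, Gcsam at 10.8 and 90.7, and Ifi205 at 28.9 and 141. BC028528 stood at 75.8 CPM in members and 292 in the cDC1 gate. All of these genes but BC028528 rested on 8 to 18 UMIs in that gate. Wdfy4, which cDC1 need to present cell-borne antigen, stood at 110.0 CPM in members and 181 in the cDC1 gate, a ratio of 0.607 (0.354 to 1.09).

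**Figure D5:**
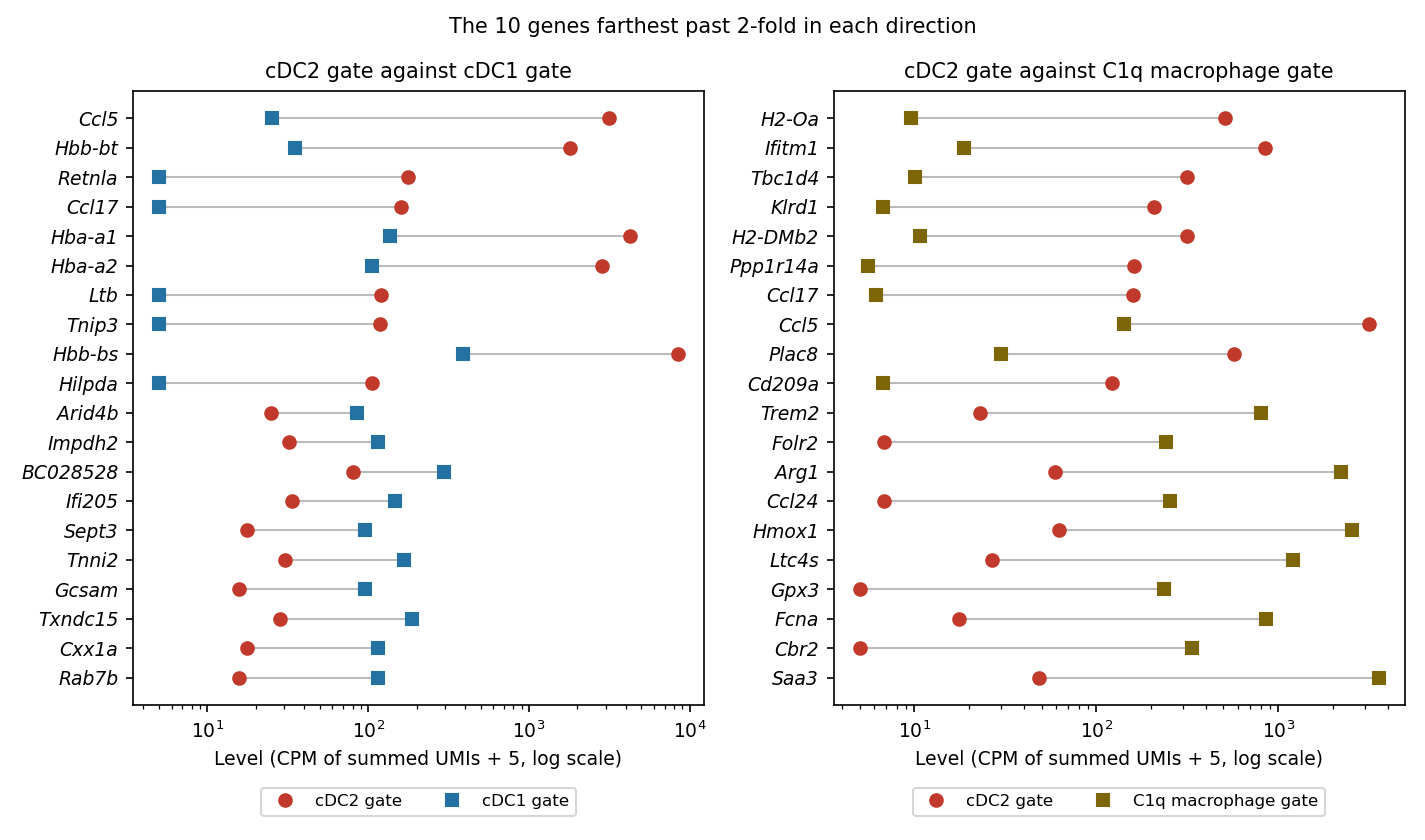
Levels in members beside the cDC1 gate (left) and the C1q macrophage gate (right) of the 10 genes farthest past 2-fold in each direction, as CPM + 5 on a log axis, with a line joining the 2 levels of a gene. Ccl5 reaches the widest gap among genes higher in members against the cDC1 gate, and Saa3 among genes lower in members against the macrophage gate.

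Against macrophages the 10 highest genes in members were H2-Oa, Ifitm1, Tbc1d4, Klrd1, H2-DMb2, Ppp1r14a, Ccl17, Ccl5, Plac8 and Cd209a. Tbc1d4, a regulator of vesicle traffic, stood at 312 CPM in members, 141 in the cDC1 gate and 5.14 in the macrophage gate, 60.8-fold (31.3 to 135) higher than in macrophages. Ppp1r14a, an inhibitor of myosin phosphatase, stood at 157 CPM in members and 141 in the cDC1 gate, and had 1 UMI in the macrophage gate. Both were also among the 20 genes highest over all other barcodes, with Plbd1 at 233, Tspan13 at 168, Cd52 at 3674, Lsp1 at 536 and Ear2 at 123 CPM in members. In the cDC1 gate Plbd1 stood at 302, Tspan13 at 161, Cd52 at 4705 and Lsp1 at 433 CPM, so these genes were present in both dendritic gates.

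Lower in members than in macrophages were Saa3, Cbr2, Fcna, Gpx3, Ltc4s, Hmox1, Ccl24, Arg1, Folr2 and Trem2. Saa3, an acute phase protein, stood at 43.3 CPM in members and 3566 in the macrophage gate. Arg1, the arginine-degrading enzyme of alternatively activated macrophages, stood at 54.1 and 2194 CPM. Cbr2 and Gpx3 had no UMI in members and were at 330.4 and 231 CPM in the macrophage gate, at least 61.1-fold and 42.6-fold higher there with members taken at 3 UMIs.

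The migratory gate was too small for firm values, with 14280 UMIs in 9 barcodes and 70.0 CPM for 1 UMI. Of 1617 genes, 647 (40.0%) were past 2-fold, 208 higher (12.9%) and 439 lower (27.1%) in members, with a median log2 ratio of -0.39. Fabp5, a fatty acid binding protein, stood at 101 CPM in members and 3011 in the migratory gate, from 43 UMIs. Ccl5 stood at 3144 CPM in members and 7563 in the migratory gate, from 108 UMIs, so it was high in both. Psap, at 754 CPM, Lyz2, at 743, and Ccl6, at 601 in members, had no UMI in the migratory gate, where 3 UMIs would be 210.1 CPM. Relb stood at 25.2 CPM in members and at 280.1 in the migratory gate from 4 UMIs.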

How the data were processed

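Single-cell RNA from ascites was deposited by the authors as UMI counts per gene and barcode of a 10x Genomics assay, 27998 genes by 737280 barcodes with 35733776 UMIs and no selection of cells. The aligner and the genome build of the counts are not stated in the labels used here. The bulk table, with 8 columns whose names match no sample label, was not used. The members and gene lists (43 lists, 454 symbols, 8 of them not in the gene table) were chosen with earlier results of these data known.

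The cell filter left 6442 barcodes, with a median of 3300 UMIs. Scrublet (scanpy 1.11.5) marked 89 of them (1.38%) as doublets, which were kept and left out in an alternative. UMIs were summed per gate and scaled to counts per 1000000 (CPM). Levels have exact Poisson, shares Clopper-Pearson and ratios conditional binomial 95% intervals, which cover counting error only, and a count of 0 was taken as up to 3 counts. With 1 library there was no test and no p-value. Genes were counted past 2-fold after 5 CPM was added, where the mean of both levels was at least 50 CPM. Free RNA was estimated from Krt7, Upk1b, Cp and Dcn relative to their level in barcodes of 100 to 200 UMIs. Members were clustered without the rule genes on 1000 variable genes, with counts scaled to 10000, values limited to 10, 15 components, 15 neighbours, Leiden resolution 0.5 (leidenalg 0.10.2) and seed 1. Arrays and tables were handled with numpy 2.4.6 and pandas 2.3.3, intervals with scipy 1.17.1, single-cell data with anndata 0.12.19 and plots with matplotlib 3.10.9, under Python 3.11.15. The scripts were checked on simulated counts.

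Named genes were list members with 20 or more UMIs in the gate, and defining markers near 0. The 20 genes highest over all other barcodes at 100 CPM or more, the 10 farthest past 2-fold each way in a comparison and the 5 leading genes of each sub-cluster were also named. List genes below 20 UMIs that are named with a value, such as Il10 or Mrc1, were picked after their values were seen. Gene positions come from GENCODE M21 (GRCm38), where 27645 gene identifiers were found. Alternatives were other cell filters, doublets left out, other limits of the gate, other filters on low levels and free RNA subtracted.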

Additional observations from a re-analysis of the deposited data

How the results depend on the processing

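The number of members was 425, and 320 with 1000 or more UMIs, 377 with the C1q genes at 0, 326 with the keratin genes at 0 and 369 with the cDC1 genes at 0. Under alternatives chosen after seeing the data it was 374 without the sub-cluster high in macrophage genes and 271 with 5% or more class II. The other alternatives left 389 to 425 members. Genes past 2-fold numbered 198 against the cDC1 gate, 368 against the macrophage gate and 647 against the migratory gate. With levels averaging 100 CPM or more they numbered 78, 177 and 307, and with no filter on low levels 3732, 1619 and 6456, since more genes then enter or leave. Against the migratory gate they numbered 1313 with class II at 2% or more and 1171 with the keratin genes at 0, where 6 and 5 barcodes were left in that gate. The share of called genes that were higher in members against the cDC1 gate was 58.1%, and 40.4% with free RNA subtracted. Against the migratory gate it was 32.1%, 17.7% with class II at 2% or more, 20.7% with the keratin genes at 0 and 80.3% with no filter on low levels. The other counts stayed within 1.5 times. Of 181 named gene levels, 18 moved by over 1.5 times without the sub-cluster high in macrophage genes, among them Apoe, Lyz2, Pf4, Retnla, Hmox1, Arg1 and Csf1r. With members of 5% or more class II 27 did, Cd209a among them, at 178 CPM in place of 117 CPM. With 1000 or more UMIs 3 did, Apoe, Hmox1 and Ly6d, and Ly6d was then at 10.6 CPM in place of 70.3. No paired analysis was possible because the members come from 1 library, no test was made, and the columns of the bulk table carry no replicate number of a label. Genes such as Irf4 and Zbtb46 had few UMIs in members, and the part of depth in this was not tested.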

Other observations

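Of 12 counted genes of the actin and motility list, 5 were higher in members than in macrophages and none lower. Over all genes 5.95% were higher and 16.4% lower. Against the cDC1 gate 1 was higher and 1 lower, near the shares of all genes, 7.84% and 5.66%. Lsp1, an actin-binding protein of leukocytes, stood at 536 CPM in members, 433 in the cDC1 gate and 171 in the macrophage gate. Coro1a, a coronin, stood at 372, 494 and 183 CPM, and Cytip, which regulates adhesion, at 112, 141 and 11.4. Rac2, a GTPase of leukocytes, was 2.67-fold (1.41 to 5.68) higher in members than in the cDC1 gate.

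The calcium-binding S100a4 stood at 929 CPM in members, 101 in the cDC1 gate and 396 in the macrophage gate, 9.22-fold (4.97 to 19.3) and 2.35-fold (2.09 to 2.63) higher. S100a6 stood at 2141, 957 and 1689 CPM, and free RNA would give 901 CPM in members; epithelial barcodes held it at 3976 CPM. Lgals1 stood at 4844 CPM in members, where free RNA would give 5258 CPM, so its level in members was not above that estimate.

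Of the immediate early genes, 2 of 11 counted were higher in members than in macrophages and none lower, with a median log2 ratio of 0.35. Over all genes 5.95% were higher and 16.4% lower. Btg2 stood at 399 CPM in members, 302 in the cDC1 gate and 100.4 in the macrophage gate, and Ier2 at 218, 151 and 86.2. Nr4a1, from the nonclassical monocyte list, stood at 198, 272 and 46.2 CPM. The 18 cell cycle genes summed to 2094 CPM in members, 1884 in the cDC1 gate and 1176 in the macrophage gate. H2afz held most of the sum in members, at 1425 CPM, against 1138 in the cDC1 gate and 511 in the macrophage gate. Tubb5 at 263, Hmgb2 at 170 and Stmn1 at 90.2 CPM also passed 20 UMIs in members. The other 14 genes were below that, with Mki67 at 2 and Top2a at 9 UMIs.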
